A study of Mus musculus with 2 samples.

Results

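Messenger RNA of 10 genes of the integrated stress response and the unfolded protein response was compared between mouse lungs exposed to PM2.5, airborne particles in the fine size range, and control lungs. The genes were Atf4, Ddit3, Trib3, Chac1, Asns, Sesn2, Xbp1, Herpud1, Sdf2l1 and Creld2. They were taken by symbol, and each matched 1 of the 37315 Ensembl identifiers in the count files. Both groups were lung tissue of C57BL/6 mice, an inbred strain, with 1 library from PM2.5 exposure and 1 control library. Both titles also hold 12W, an abbreviation that is left as it stands. The labels give no dose, route or length of exposure, no sex or age, and no number of animals per library. The PM2.5 library held 57435027 counts and the control library 62788045. With 1 library a group there is no replicate check and no p-value: each ratio carries an exact 95% interval for counting error alone and describes these 2 libraries, not the exposure.

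The integrated stress response slows protein synthesis when a kinase phosphorylates the translation factor eIF2α. The kinases sense haem shortage (HRI), double-stranded RNA (PKR), unfolded protein in the endoplasmic reticulum, or ER (PERK), and amino acid shortage (GCN2). Translation of the transcription factor ATF4 then increases, and ATF4 activates genes of amino acid supply and of stress adaptation. The unfolded protein response adds the ER sensors IRE1, which splices Xbp1 mRNA, and ATF6, which is cleaved in the Golgi. In lung, this machinery serves cells that secrete much protein, such as alveolar type 2 cells, club cells and plasma cells. ATF4 translation, eIF2α phosphorylation, Xbp1 splicing and ATF6 cleavage cannot be read from counts per gene.

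The promoters of several of these genes hold elements through which ATF4, ATF6 and XBP1 are known to act, and the stretches that carry them are shown to tell apart the genes with each kind of element. Sequences were those of RefSeq on GRCm38.p6, from 250 bases before to 50 bases after the start that RefSeq annotates, and all 10 genes were matched. Positions of elements are counted from this start, which differs from the 5′ end of the GENCODE gene given further on for 7 of the 10. For Asns the RefSeq start is 7693209 and the GENCODE start 7693254, so that the element lies before the one and after the other. For Trib3 the RefSeq start is 152344060 and the GENCODE start 152344032, with the reverse result. An ATF4 element (CARE, searched as TGATGNAA on both strands) was found in 4 of the 10 promoters, against 3.97% of the 32851 promoters in the table. An ER stress element (ERSE, CCAAT and CCACG with 9 bases between them) was found in 1, against 0.119% of all promoters. Its second form (ERSE-II, ATTGG and CCACG with 1 base between them) was also found in 1, against 0.0365%. The XBP1 element (UPRE, TGACGTGG) was found in 0 of 10, against 0.676%. No 2 of these matches overlap. The stretches are written on the strand of the gene, 5′ to 3′, with the element in capitals, which for Trib3, Chac1, Creld2 and the CARE of Herpud1 is the reverse complement of the letters searched.
Asns, CARE beginning 23 bases before the start, chr6:7693205-7693252, minus strand: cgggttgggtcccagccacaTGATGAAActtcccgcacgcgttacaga
Chac1, CARE beginning 193 bases before the start, chr2:119351029-119351076, plus strand: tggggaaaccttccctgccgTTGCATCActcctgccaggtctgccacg
Trib3, CARE beginning 14 bases after the start, chr2:152344019-152344066, minus strand: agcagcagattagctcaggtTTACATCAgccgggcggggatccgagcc
Herpud1, CARE beginning 112 bases before the start, chr8:94386297-94386344, plus strand: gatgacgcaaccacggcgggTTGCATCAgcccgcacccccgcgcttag
Herpud1, ERSE-II beginning 52 bases before the start, chr8:94386357-94386407, plus strand: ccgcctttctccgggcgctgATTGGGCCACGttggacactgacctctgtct
Creld2, ERSE beginning 126 bases before the start, chr15:88819500-88819558, plus strand: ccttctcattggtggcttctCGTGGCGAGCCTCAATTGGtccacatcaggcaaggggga

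These letters were not found in the same window of Atf4, Ddit3, Sesn2, Xbp1 and Sdf2l1. A match is a description of the sequence, not evidence of binding in these lungs.

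Of the 10 genes, Ddit3 and Asns were higher in the PM2.5 library, Sesn2 was lower, and the other 7 lay within 1.5-fold of equality. Levels are in CPM, counts per 1000000 counts of a library total that edgeR's TMM method had scaled. A gene was called where its ratio was at least 1.5-fold in either direction and its interval excluded 1. The genes called were thus 2 higher and 1 lower of 10, that is 20% and 10%. Among all 14518 genes that averaged 1 CPM or more, 14.9% were called higher and 19.1% lower by the same rule. With 1 gene making 10% of the set, these counts do not set the 10 genes apart from all genes. All 10 genes passed the level of 1 CPM, in both libraries. Their median log2 ratio, PM2.5 over control, was 0.15, against -0.09 over all measured genes, and 7 of the 10 lay between the quartiles of all genes, -0.48 and 0.33. Their summed level was 723.8 CPM in the PM2.5 library and 684.8 CPM in the control library, a ratio of 1.06. In bulk tissue, fewer cells of a type and less RNA per cell cannot be told apart.

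**Figure D1:**
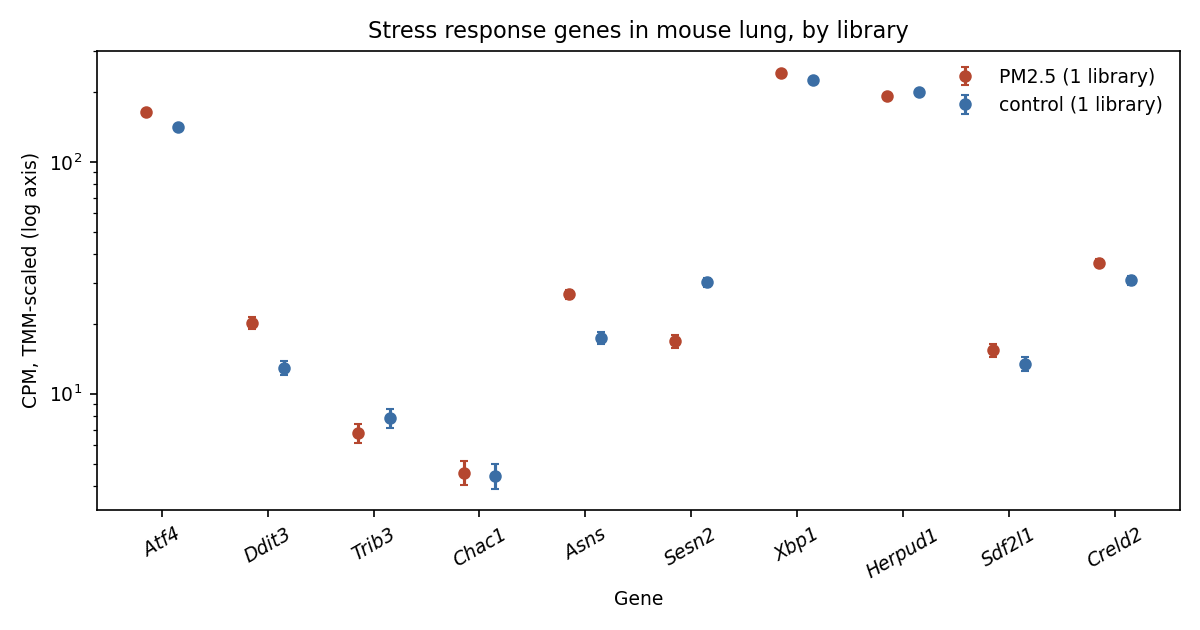
CPM on a log axis (vertical) for each of the 10 genes (horizontal), with the PM2.5 library in red on the left of each pair and the control library in blue on the right; bars are exact 95% counting intervals. Ddit3 (20.2 CPM with PM2.5, 12.9 CPM in the control) and Asns (26.8 CPM with PM2.5, 17.4 CPM in the control) stand higher in the PM2.5 library, Sesn2 (16.8 CPM with PM2.5, 30.2 CPM in the control) stands lower, and the pairs of the other 7 genes lie close together.

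The levels of the 10 genes differed far more from one another than between the libraries. Per kilobase of the longest transcript in GENCODE M21, which may differ from the annotation the authors counted on, the scale on which different genes are compared, they spanned 40.6-fold in the PM2.5 library and 39.4-fold in the control library. Xbp1 was the most abundant, at 113 CPM per kilobase in the PM2.5 library and 106 in the control library, followed by Herpud1 at 98.3 with PM2.5 and 103 in the control. Atf4 came next, at 81.2 with PM2.5 and 70.0 in the control. Chac1 was the least abundant, at 2.78 CPM per kilobase in the PM2.5 library and 2.69 in the control library, with Trib3 next at 3.32 with PM2.5 and 3.87 in the control. The order was the same in both libraries except that Asns, at 13.3 CPM per kilobase in the PM2.5 library and 8.62 in the control library, and Sesn2, at 4.82 with PM2.5 and 8.70 in the control, changed places. In the PM2.5 library the counting intervals of Sdf2l1 and Asns, and of Trib3 and Chac1, overlapped. In the control library those of Xbp1 and Herpud1, of Ddit3 and Sdf2l1, and of Sesn2 and Asns did. Xbp1, Herpud1 and Atf4 together took 82.4% of the summed CPM of the 10 genes in the PM2.5 library and 82.9% in the control library, so the sum follows these 3.

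Atf4 itself, which encodes the effector of the integrated stress response, differed little. Its identifier is ENSMUSG00000042406, and it lies on the plus strand of chromosome 15 from 80255184 to 80257541 in GRCm38, the build of all coordinates given here. There were 10197 Atf4 counts in the PM2.5 library and 8198 in the control library. That is 164 CPM in the PM2.5 library and 141 CPM in the control library, a ratio of 1.16 (95% counting interval 1.13 to 1.19). The counting interval excludes equality, but the ratio is below 1.5-fold, and 69.4% of all measured genes had a lower ratio. ATF4 is regulated mainly through translation, which these counts do not measure.

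Ddit3 encodes CHOP, the transcription factor of prolonged stress that ATF4 induces. It is ENSMUSG00000025408, on the plus strand of chromosome 10 from 127290774 to 127296288. Ddit3 had 1259 counts in the PM2.5 library and 749 in the control library. The level was 20.2 CPM with PM2.5 and 12.9 CPM in the control, a ratio of 1.57 (1.43 to 1.72), above those of 86.8% of measured genes. Its longest transcript of 969 nt is the shortest among the 10 genes, and short transcripts in general had higher ratios in these libraries. The trend with length gives a log2 ratio of 0.34 for a gene of this length. Subtracting it from 0.65 left 0.31, with all genes then centred at 0. Keeping the median of all genes at -0.09, as with TMM scaling, left 0.22. Ddit3 was called higher in neither case. On the opposite strand it overlaps by 68 bases with Mars, which had 2305 counts in the PM2.5 library and 2561 in the control library, and Gm4189 by 15 bases, with 42 counts in the PM2.5 library and 7 in the control library. Whether the counting used the strand is not stated, so reads in such overlaps cannot be assigned with certainty.

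Asns encodes asparagine synthetase, a classical target of ATF4 under amino acid shortage, and it carries one of the CAREs shown above. It is ENSMUSG00000029752, on the minus strand of chromosome 6 from 7675169 to 7693254. Asns had 1670 counts in the PM2.5 library and 1008 in the control library. The level was 26.8 CPM with PM2.5 and 17.4 CPM in the control, a ratio of 1.54 (1.43 to 1.67), above those of 86.3% of measured genes. It is of a length, 2016 nt, at which the trend is small, 0.05 on the log2 scale. Its log2 ratio of 0.63 became 0.58 on subtracting the trend, just under 1.5-fold, and 0.49 with the median of all genes kept, so the larger part of the second difference is the centring and not length. The lower bounds of the intervals of both Ddit3 and Asns are also below 1.5-fold.

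The pseudokinase gene Trib3 and the glutathione-degrading enzyme gene Chac1 are targets of ATF4 and CHOP, and both carry a CARE. Trib3, or ENSMUSG00000032715, lies on the minus strand of chromosome 2 from 152337422 to 152344032. It had 419 counts in the PM2.5 library and 455 in the control library. At 6.74 CPM with PM2.5 and 7.85 CPM in the control the ratio was 0.858 (0.750 to 0.982), and its sign depends on the scaling, with a log2 ratio of -0.22 here and 0.01 with library totals. Chac1, or ENSMUSG00000027313, lies on the plus strand of the same chromosome from 119351229 to 119354381. It had 283 counts in the PM2.5 library and 255 in the control library. At 4.55 CPM with PM2.5 and 4.40 CPM in the control the ratio was 1.03 (0.870 to 1.23), the only interval of the 10 that includes equality. Neither gene was called.

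Sesn2 encodes sestrin 2, which restrains the growth kinase complex mTORC1 and is induced by ATF4, and also by p53 and by NRF2. It had the largest departure from equality among the 10 genes. It is ENSMUSG00000028893, on the minus strand of chromosome 4 from 132492032 to 132510501. Sesn2 had 1042 counts in the PM2.5 library and 1752 in the control library. The level was 16.8 CPM with PM2.5 and 30.2 CPM in the control, a ratio of 0.554 (0.513 to 0.599), or 1.80-fold lower, and 8.94% of measured genes had a lower ratio. Its transcript is the longest of the 10, at 3475 nt, and longer transcripts tended to be lower, with a trend of -0.15 at this length. The log2 ratio of -0.85 became -0.71 on subtracting the trend and -0.80 with the median of all genes kept, and the gene was called lower in both cases. Gm12981, a noncoding gene that overlaps Sesn2 by 6089 bases on the same strand, had 10 counts in the PM2.5 library and 1 in the control library.

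**Figure D2:**
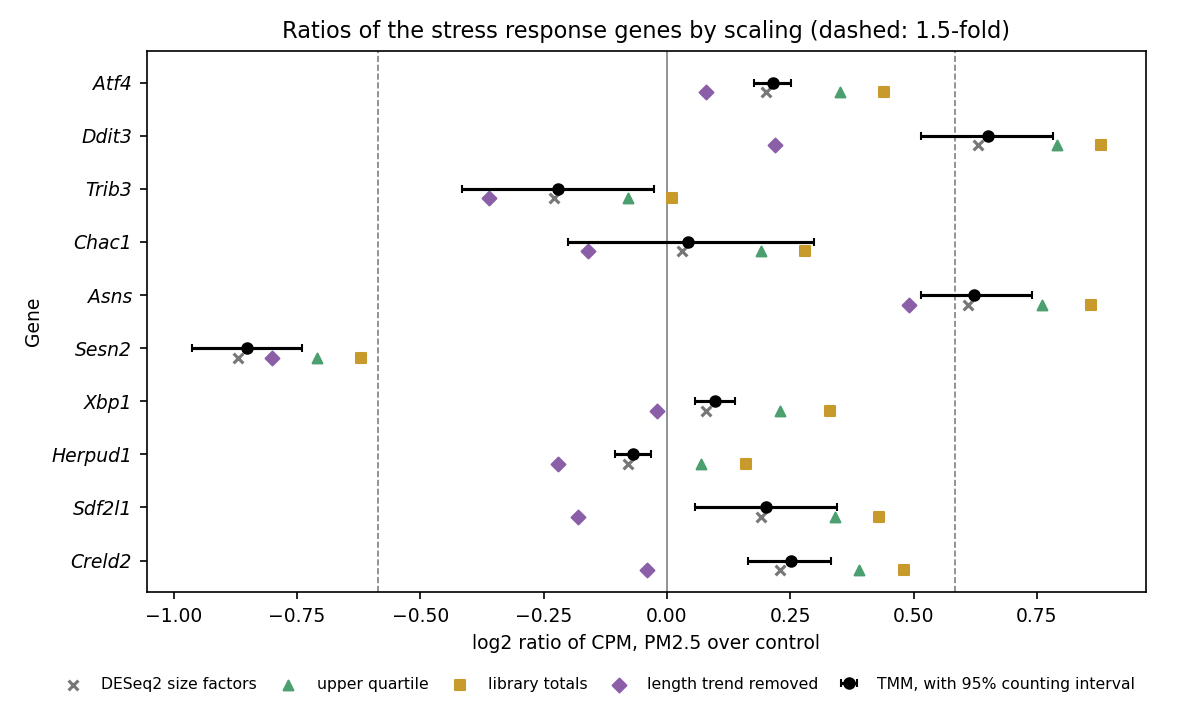
The log2 ratio of CPM, PM2.5 over control (horizontal), for each gene (vertical), with TMM scaling and its 95% counting interval in black, and under other scalings and with the length trend removed as coloured marks; dashed lines are 1.5-fold. Ddit3, Asns and Sesn2 lie past the dashed lines under every scaling drawn, and with the length trend removed and the median of all genes kept, Sesn2 alone does.

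The 4 genes of the ER branch had ratios of 0.953 to 1.19, a narrower range than the 0.554 to 1.57 of Atf4 and its targets, and none was called. Xbp1, whose mRNA is spliced by IRE1 to encode an activator of ER and secretory genes, is ENSMUSG00000020484, on the plus strand of chromosome 11 from 5520659 to 5525893. It had 14988 counts in the PM2.5 library and 13060 in the control library. At 241 CPM with PM2.5 and 225 CPM in the control its ratio was 1.07 (1.04 to 1.10). Herpud1 encodes an ER membrane protein of ER-associated degradation and carries both a CARE and an ERSE-II. It is ENSMUSG00000031770, on the plus strand of chromosome 8 from 94386438 to 94395377. It had 11934 counts in the PM2.5 library and 11666 in the control library, or 192 CPM with PM2.5 and 201 CPM in the control, a ratio of 0.953 (0.929 to 0.978). Its log2 ratio of -0.07 changed sign under library totals, to 0.16, and under the upper quartile, to 0.07. Gm15890, which overlaps it on the opposite strand by 535 bases, had 47 counts in the PM2.5 library and 13 in the control library.

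Sdf2l1 encodes a luminal ER protein that works with the chaperone BiP and its J-protein partner and is ENSMUSG00000022769, on the minus strand of chromosome 16 from 17130138 to 17132383. It had 955 counts in the PM2.5 library and 774 in the control library. At 15.4 CPM with PM2.5 and 13.4 CPM in the control the ratio was 1.15 (1.04 to 1.27). Creld2, the ER stress-inducible gene whose ERSE is shown above, is ENSMUSG00000023272, on the plus strand of chromosome 15 from 88819646 to 88826683. It had 2274 counts in the PM2.5 library and 1785 in the control library. At 36.6 CPM with PM2.5 and 30.8 CPM in the control the ratio was 1.19 (1.12 to 1.26). Both transcripts are short, 1108 and 1366 nt, and the trend at these lengths was 0.29 and 0.20. Subtracting it from their log2 ratios of 0.20 and 0.25 left -0.09 and 0.05. Keeping the median of all genes left -0.18 and -0.04, so the sign for Creld2 depends on this choice.

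Because every scaling multiplies all genes of a library alike, the ratio of a pair of genes within a library does not depend on it, although the trend with length still acts on it. Per 100 counts of Atf4 there were 12.3 counts of Ddit3 in the PM2.5 library and 9.14 in the control library, a ratio of ratios of 1.35 (1.23 to 1.49). For Asns there were 16.4 with PM2.5 and 12.3 in the control, a ratio of 1.33 (1.22 to 1.45). For Sesn2 there were 10.2 with PM2.5 and 21.4 in the control, a ratio of 0.478 (0.440 to 0.519). Trib3 was lower relative to Atf4 in the PM2.5 library, at 0.740 (0.645 to 0.850), and Chac1 was within counting error of it, at 0.892 (0.749 to 1.06). Relative to Ddit3, Trib3 stood at 0.548 (0.465 to 0.645) and Chac1 at 0.660 (0.543 to 0.804). Of the ER genes, Sdf2l1 and Creld2 stood at 0.992 (0.897 to 1.10) and 1.02 (0.956 to 1.10) relative to Atf4. Xbp1 and Herpud1 were lower relative to Atf4, at 0.923 (0.889 to 0.958) and 0.822 (0.791 to 0.855). Corrected for the trend at the lengths of both genes, Ddit3 relative to Atf4 was 1.10 (1.0 to 1.21), with its lower bound about at equality. Sdf2l1 was then 0.839 (0.759 to 0.928) and Creld2 0.920 (0.858 to 0.985). Asns remained at 1.33 and Sesn2 was 0.546 (0.502 to 0.593), so that these targets of ATF4 differed in proportion to it in opposite directions with the correction as well. Relative to Ddit3, Trib3 was then 0.672 (0.570 to 0.791) and Chac1 0.768 (0.631 to 0.935).

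**Figure D3:**
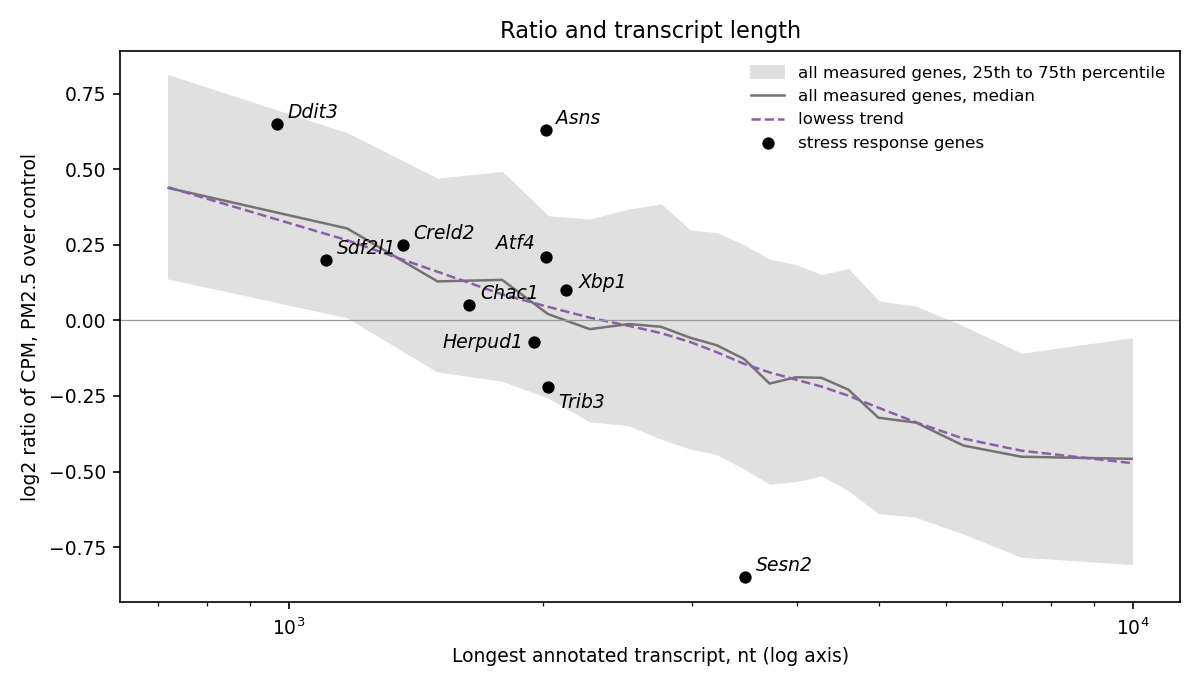
The log2 ratio, PM2.5 over control (vertical), against the length of the longest annotated transcript in nt on a log axis (horizontal). The grey line and band are the median and the quartiles of 20 groups of measured genes by length, the dashed line is the lowess trend, and the points are the 10 genes; Ddit3 lies among the short transcripts, within the band, and Sesn2 lies below the lower quartile of genes of its length.

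The relation with length is a property of the libraries as a whole. Across 14387 measured genes with an annotated length, which are not independent replicates, Spearman's rho between length and log2 ratio was -0.37. Whether Ddit3, with a trend of 0.34, is read as higher turns on it. For Asns the trend was only 0.05, and its log2 ratio of 0.58 after subtraction lay just under 1.5-fold. The part of length in the ratios was not tested beyond the removal of the trend.

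The wider pathway was described with 11 lists of 209 genes, of which 208 were matched and 202 averaged 1 CPM or more. Of these, 10 were higher (4.95%) and 33 lower (16.3%), against the 14.9% and 19.1% of all measured genes, and the median log2 ratio was -0.21. The share of all genes called higher depended on their level. At a mean of at least 10 CPM, 187 of the pathway genes remained, 3.74% higher and 16.6% lower. Of all genes at that level, 8.31% were higher and 21.1% lower. The 14.9% and 19.1% are also the shares to set beside the counts of each list below. The balance depended on the scaling: 30 were higher and 9 lower with library totals, against 23.8% higher and 9.90% lower of all genes, and 19 were higher and 20 lower with the upper quartile, against 19.5% and 13.2%. Those scalings raised every log2 ratio by 0.23 and 0.14, and 6 and 3 of the 11 list medians changed sign. Of the 30 genes that the naming rule took from the lists, 14 kept their call under all 4 other scalings, and Mbtps1, Impact, Atf3, Creb3l1, Creb3l2, Slc7a5, Slc1a4, Ddit4, Cdkn1a, Vldlr, Sesn3, Manf, Sec11c and Hspe1 are those genes. The 9 of them that were lower are all of the pathway genes lower with library totals, so Cebpb and Cbs, named below, were not. The other 16 of the 30, all lower, lost it with library totals, and 8 of them with the upper quartile too. Removal of the length trend with the median of all genes kept left 22 of the 30 called, and the 8 that lost it were Atf6, Ppp1r15b, Aars, Pofut2, Sel1l, Edem3, Manf and Hspe1. Subtracting the trend without keeping the median left 13 of the 30 called. In that case 14 pathway genes were higher and 17 lower, 45.2% of the calls being higher against 23.3% with TMM scaling alone and 57.8% over all genes.

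**Figure D4:**
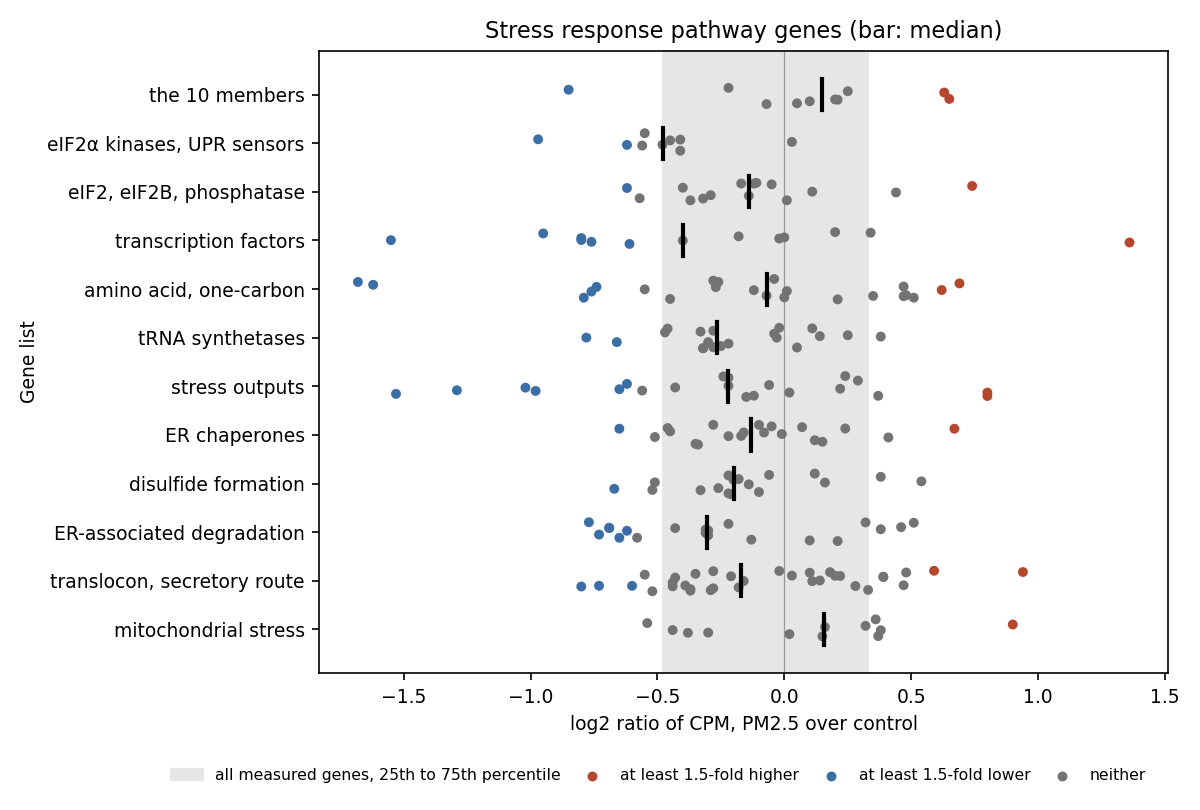
The log2 ratio of CPM, PM2.5 over control (horizontal), of each measured gene of the 10 and of 11 pathway lists (vertical), with red for genes called higher, blue for lower and grey for neither; black bars are medians and the grey band spans the quartiles of all measured genes, -0.48 to 0.33. The list medians lie from -0.48 to 0.15, with the list of kinases and sensors lowest.

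Most genes of the eIF2α kinases, which act upstream of ATF4, and of the ER sensors had ratios below 1, and few reached 1.5-fold. Of 9 measured genes in the list of eIF2α kinases and ER sensors, 0 were higher and 2 lower, with a median log2 ratio of -0.48. Mbtps1, the protease that cleaves ATF6 in the Golgi, had a ratio of 0.511 (0.496 to 0.526), and Atf6 was 1.54-fold lower (1.49 to 1.59), but its ratio was 0.822 and not called with the length trend removed. The kinase genes Eif2ak3 (PERK), Eif2ak1 (HRI) and Eif2ak2 (PKR) had ratios of 0.683, 0.730 and 0.751, Ern1 (IRE1α) had 0.719, and Eif2ak4 (GCN2) had 1.02. None of these was called. The 2 lower calls do not set the ATF6 branch apart from the eIF2α kinases. The interval of the Atf6 ratio, 0.628 to 0.673, overlaps that of Eif2ak3, 0.646 to 0.721. Mbtps2 and Atf6b, also of the ATF6 branch, had ratios of 0.678 and 0.752 and were not called. Atf6 was not called with library totals or the upper quartile either. Ern2, the epithelial form of IRE1 that is known from mucous cells, was below 1 CPM with 27 counts in the PM2.5 library and 7 in the control library, a ratio of 3.60 (1.53 to 9.78). The median length of this list, 4797 nt, is in the range where all genes tended to be lower.

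In the list of eIF2, its exchange factor eIF2B and the phosphatase that reverses the response, 1 of 15 measured genes was higher and 1 lower. Impact, known as an inhibitor of GCN2 activation, was 1.67-fold higher (1.57 to 1.78), with 2764 counts in the PM2.5 library and 1544 in the control library. Ppp1r15b, the constitutive subunit of the eIF2α phosphatase, was 1.54-fold lower (1.48 to 1.60). The stress-induced subunit Ppp1r15a (GADD34), a target of ATF4 and CHOP, had a ratio of 0.921 (0.875 to 0.968).

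Among transcription factors that act beside ATF4, the median was -0.40, with 1 of 13 measured genes higher and 6 lower. Atf3, a stress-induced factor downstream of ATF4 and of other signals, was 2.57-fold higher (2.32 to 2.85), with 1401 counts in the PM2.5 library and 508 in the control library. Creb3l1 and Creb3l2, ER-anchored factors activated by cleavage, were 2.93-fold lower (2.70 to 3.18) and 1.93-fold lower, on 5154 counts in the PM2.5 library and 9283 in the control library for Creb3l2. Nfe2l1, which controls proteasome genes, was 1.74-fold lower, and Cebpb, a partner of ATF4 and CHOP, 1.52-fold lower. Atf5 and Nupr1, both targets of the response, had ratios of 1.15 and 1.27.

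Other targets of ATF4 in amino acid and one-carbon supply were called in both directions, as were all measured genes, 14.9% higher and 19.1% lower. The list had 23 measured genes with a median of -0.07, 2 of them higher and 5 lower. At a mean of at least 10 CPM, 0 of 16 were higher and 4 lower. The genes called higher were the proline synthesis gene Pycr1 at 1.61-fold (1.25 to 2.08), with 171 counts in the PM2.5 library and 99 in the control library, and the folate enzyme gene Aldh1l2 at 1.54-fold (1.09 to 2.18), with 94 counts in the PM2.5 library and 57 in the control library. The amino acid transporter genes Slc7a5 and Slc1a4 were 3.20-fold (2.84 to 3.62) and 3.06-fold lower (2.89 to 3.25), and the glycine transporter gene Slc6a9 1.67-fold lower. The other 6 of the 9 measured transporter genes were not called, with ratios of 1.39 for Slc1a5, 1.38 for Slc7a11, 0.838 for Slc38a1, 0.826 for Slc38a2, 0.730 for Slc3a2 and 0.683 for Slc7a1. The transporter gene Slc7a3 averaged below 1 CPM, with 62 counts in the PM2.5 library and 7 in the control library, a ratio of 8.26 (3.78 to 21.4). Pck2 and Cbs were 1.73-fold and 1.69-fold lower. Of the serine and one-carbon genes set to be named, Phgdh had a ratio of 1.38, Psat1 0.974, Shmt2 0.951 and Mthfd2 1.43, and none was called.

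Cytosolic aminoacyl-tRNA synthetase genes, many of which ATF4 induces, numbered 20, of which 0 were higher and 2 lower. Their median was -0.27. Wars was 1.72-fold lower (1.67 to 1.78) and Aars 1.58-fold lower (1.52 to 1.64).

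In the list of stress outputs, which had a median of -0.22, 2 of 21 measured genes were higher and 6 lower. The growth factor gene Vegfa, at 889 CPM in the PM2.5 library and 512 CPM in the control library, was 1.74-fold higher (1.71 to 1.76). Stc2, a secreted glycoprotein gene of the response, was also 1.74-fold higher (1.39 to 2.18), on 229 counts in the PM2.5 library and 123 in the control library. Lower genes included Cdkn1a, the cell-cycle inhibitor and p53 target, at 2.88-fold (2.75 to 3.01), and Ddit4, an inhibitor of mTORC1, at 2.45-fold (2.31 to 2.60). The lipoprotein receptor gene Vldlr had a ratio of 0.494 (0.475 to 0.512) and Sesn3, a relative of Sesn2, was 1.97-fold lower (1.74 to 2.23). Gdf15, a secreted marker of the response, had 76 counts in the PM2.5 library and 58 in the control library, a ratio of 1.22 (0.856 to 1.75). Fgf21 had 0 counts in both, which allows up to 0.0482 CPM in the PM2.5 library and 0.0517 CPM in the control library, taken as 3 counts a library.

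The ER chaperone list, which holds the classical targets of ATF6 and XBP1, had 1 of 20 genes higher and 1 lower, with a median of -0.13. Manf, a secreted ER stress protein gene, was 1.59-fold higher (1.52 to 1.66), with 4879 counts in the PM2.5 library and 2865 in the control library, and was not called with the length trend removed and the median of all genes kept. Hspa5, which encodes BiP, the chaperone that holds the sensors inactive, had 532 CPM in the PM2.5 library and 399 CPM in the control library, a ratio of 1.33 (1.31 to 1.35). Relative to Xbp1 within a library, Hspa5 stood at 1.24 (1.21 to 1.28), and at 1.43 (1.39 to 1.47) corrected for length. Hsp90b1, Dnajb9 and Dnajc3 had ratios of 1.05, 0.966 and 0.824, and Pofut2, an enzyme gene of O-fucosylation in the ER, had 0.639 (0.610 to 0.669) and was called lower.

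Genes of disulfide formation had 0 of 17 higher and 1 lower, Qsox1 at 1.59-fold (1.54 to 1.63), and those of ER-associated degradation, in which Herpud1 acts, 0 of 20 higher and 6 lower, with a median of -0.30. Herpud2, the relative of Herpud1, was 1.71-fold lower (1.63 to 1.79), Nploc4, a cofactor of the p97 segregase, 1.66-fold, Sel1l, the partner of the HRD1 ligase, 1.62-fold, and the mannosidase gene Edem3 1.62-fold. Edem1, a target of XBP1, had a ratio of 0.856.

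Genes of the translocon and the secretory route had a median of -0.17, and 2 of the 34 measured were higher and 3 lower. Srp54a averaged below 1 CPM, with 108 counts in the PM2.5 library and 2 in the control library, a ratio of 50.3 (13.6 to 421). Sec11c, a signal peptidase subunit gene, was 1.92-fold higher (1.83 to 2.03) and the translocon-associated Ssr4 1.51-fold (1.43 to 1.58). Ssr4 was not called with DESeq2 size factors, nor with the length trend removed and the median of all genes kept. The vesicle coat genes Sec24d and Sec31a were 1.74-fold (1.65 to 1.83) and 1.66-fold lower (1.61 to 1.71), and the retrieval receptor gene Kdelr1 1.52-fold (1.47 to 1.57). Among 12 genes of mitochondrial protein stress, Hspe1, the mitochondrial co-chaperonin gene, was higher at 1.87-fold (1.76 to 1.99) and was not called without the length trend, 0 were lower, and the median was 0.15.

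Markers of several cell types differed between these libraries. Both libraries carried the lung markers Sftpc, at 1159636 counts in the PM2.5 library and 837001 in the control library, and Scgb1a1. Of 5 measured plasma cell markers 3 were higher, with a summed level of 640.4 CPM in the PM2.5 library and 437.4 CPM in the control library. The largest part of the control sum was Sdc1, at 243 CPM, which had 223 CPM with PM2.5 and was not called. The 3 higher markers, Igkc, Jchain and Mzb1, had ratios of 2.30, 2.61 and 1.65, and Prdm1, not called, had 0.703. Of 8 markers of mucous and secretory airway cells 6 were higher and 1 lower, with sums of 1928 CPM with PM2.5 and 451.3 CPM in the control. The PM2.5 sum was mostly Bpifa1, at 1090 CPM, and Scgb3a1, at 530 CPM, which had 143 and 151 CPM in the control. Neither mucin gene was higher. Muc5ac was the lower one, at a ratio of 0.617 (0.425 to 0.891), and Muc5b had 0.932 (0.888 to 0.978). Of 5 club cell markers 2 were higher, with sums of 34540 CPM with PM2.5 and 22830 CPM in the control. The 6 neutrophil markers were all higher, with sums of 1599 CPM with PM2.5 and 484.4 CPM in the control, as were the 6 of fat, with sums of 312 CPM with PM2.5 and 37.24 CPM in the control. Of 5 endothelial markers 4 were lower, with sums of 2082 CPM with PM2.5 and 4476 CPM in the control, and all 4 of red cell precursors were lower, with sums of 1501 CPM with PM2.5 and 2831 CPM in the control. Alveolar type 2 markers (2 of 6 lower, sums of 25520 CPM with PM2.5 and 22790 CPM in the control) and those of alveolar macrophages (1 of 5 higher and 1 lower, sums of 639 CPM with PM2.5 and 602.3 CPM in the control) are the remaining lists, and none of the 51 markers was at 0 in either library. The alveolar type 2 sums were mostly Sftpc, at 18600 CPM with PM2.5 and 14400 CPM in the control. The other markers of that list had ratios from 0.516 (Abca3) to 0.988 (Lamp3). The part of cell types in the ratios of the stress genes was not tested.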

How the data were processed

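RNA was sequenced from 1 PM2.5 and 1 control lung library. Per the labels' protocols, mRNA was selected on beads from TRIzol-extracted RNA and made into stranded libraries. TopHat2 2.1.1 and HTSeq 0.6.0 are the tools, and mm10 the build, in the submitters' processing notes. For the annotation release and the strand setting: not given in the sources used here. Values as deposited were raw counts per Ensembl gene. A blank line in the PM2.5 file carries no count and was dropped.

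Symbols, coordinates and lengths came from GENCODE M21 (GRCm38, the assembly called mm10), and 35449 of 37315 identifiers matched. TMM factors (edgeR 4.0.16, R 4.3.3) were 1.08 for PM2.5 and 0.923 for control. Ratio intervals are exact (Clopper-Pearson, from the share of a gene's reads in the PM2.5 library), those of levels exact Poisson, those of ratios of ratios exact conditional odds ratios. They cover counting error only, since each group has 1 library. They also take reads as independent, which PCR reads are not, so they may be too narrow even for counting error. The ratios, intervals and calls were tested on simulated Poisson counts, which hold counting error and no variation between animals. The scaling, the length trend, the ratios within a library and the motif search were not tested in this way. BLAST 2.17.0 found no other gene sharing 100 nt at 90% identity with the longest transcript of a member. The length trend is a lowess of fraction 0.3. It was removed keeping the median log2 ratio of all genes at -0.09 and, as an alternative chosen after seeing the data, by plain subtraction, which puts that median at 0.

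Members and lists were chosen with earlier results of these data known. Named were all members, up to 4 called genes a list by the interval bound nearest 1, and a fixed set. Cbs, Pycr1, Aldh1l2, Stc2, Vegfa, Ssr4, Slc1a5, Slc38a1, Slc38a2, Slc7a1, Slc7a3, Srp54a, Mbtps2 and Atf6b were named after their values were seen. No gene is named for likeness to a member, since 2 libraries give 1 ratio per gene. Alternatives were other scalings (DESeq2 1.42.0 size factors, totals, upper quartile, TMM without the top 100 genes), sizes, filters and the length trend. Python 3.11.15, scipy 1.17.1 and statsmodels 0.14.6 were used.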

Additional observations from a re-analysis of the deposited data

How the results depend on the processing

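Under the 4 other scalings Ddit3, Asns and Sesn2 kept their calls and no other of the 10 genes gained one. With the length trend removed and the median of all genes kept, 0 were higher and 1 lower, with log2 ratios of 0.22 for Ddit3 and 0.49 for Asns and a median over the 10 genes of -0.10. With the trend subtracted alone, an alternative chosen after seeing the data, 0 were higher and 1 lower, with 0.31 for Ddit3, 0.58 for Asns and a median of -0.01, and 17 pathway genes were lower. At a size of 2-fold, 0 were higher and 0 lower, and with an interval bound beyond 1.5-fold 0 were higher and 1 lower. The median of the 10 genes was 0.38 under library totals, 0.29 under upper-quartile scaling and 0.21 at a mean of at least 10 CPM, which 8 genes reach. Of the pathway genes, 30 were higher and 9 lower under library totals, 19 and 20 under upper-quartile scaling, 1 and 6 at 2-fold, and 6 were higher with the bound beyond 1.5-fold. At 2-fold these were 0.495% and 2.97% of the pathway genes, and with the bound 2.97% were higher and 12.4% lower. Of all genes, 7.25% were higher and 6.04% lower at 2-fold, and 10.2% and 14.4% with the bound. The other alternatives, namely DESeq2 size factors, TMM without the 100 most abundant genes, no filter and protein-coding genes alone, left these counts within 1.5 times. Scaling cannot alter the order of levels within a library. No paired analysis was possible because each group has 1 library. Depth limits Chac1 and Trib3 most, and variation between animals is unmeasured.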
